A study of Homo sapiens with 4 samples.

Results

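The comparison described here was between the array titled PC3 miR-410 and the array titled PC3 miR-CON, 2 of the 4 arrays of the series. Each gene was given by its difference, the deposited log2 value on the array titled PC3 miR-410 minus that on the array titled PC3 miR-CON. These arrays hold RNA from prostate cancer cells grown in RPMI medium with puromycin to logarithmic phase. The cells carried a stably transfected pMIR vector in which the CMV promoter drives hsa-miR-410 with a GFP reporter, or the matching scrambled construct, and were a puromycin-selected population. The other 2 arrays hold cells titled C42B with the same pair of constructs. The platform was Clariom S, which reads 1 summarised probe set for most human genes, and 17687 genes could be named. Each title had 1 array. No difference therefore had an error or a replicate check, and no test was run. How precise the values are is limited by this number of arrays.

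The labels of this pair conflict. The array titled PC3 miR-410 is described in its genotype and description fields as the control, and the array titled PC3 miR-CON as the cells with miR-410. All values below follow the titles, and by the genotype field every sign would turn. The study listed its own folds from these 2 arrays under C42B, and in the opposite direction to the titles. It listed those from the arrays titled C42B under PC3, and there too the sign is turned, although the title and genotype field name the same construct for each array of that pair. Signed values of the arrays titled C42B below also follow the titles. In what follows, the miR-410 array and the miR-CON array mean the 2 arrays titled PC3.

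MicroRNAs are short RNAs that guide Argonaute proteins to messenger RNAs. Pairing between the seed of the microRNA and a site in the message lowers the stability or the translation of that message. miR-410 is made from a large imprinted microRNA cluster between DLK1 and DIO3 on chromosome 14, a region that is active mainly in the embryo, the placenta and the brain. The arrays read messenger RNAs and do not read mature miR-410, so its level on each array was not measured.

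The mature sequences from the miR-410 hairpin are shown because the seed, in capitals (bases 2 to 8), decides which messages the microRNA can pair with. Both come from RefSeq, build GRCh38.p14, plus strand, with the first at chr14:101065961-101065981 and the second at chr14:101065925-101065945.
hsa-miR-410-3p: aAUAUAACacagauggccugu
hsa-miR-410-5p: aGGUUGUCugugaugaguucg
Of 2370 mature human microRNA names in that table, 1 had the seed of hsa-miR-410-3p, namely itself. Sites for this seed in target messages were not analysed here.

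The cells titled PC3 carried the genes of another prostate line. PC3 cells are known for lacking the androgen receptor and its secretory targets, whereas C42B cells derive from LNCaP cells, which make both. Of 14 LNCaP lineage markers 12 were measured, and they averaged 9.15 on the miR-410 array and 8.83 on the miR-CON array, against 5.79 and 6.15 on the arrays titled C42B miR-410 and C42B miR-CON. KLK3, which encodes prostate-specific antigen, was at 11.17 on the miR-410 array and 11.04 on the miR-CON array. The 16 markers of PC3 cells averaged 5.15 and 5.29 on the same arrays and 8.93 and 9.06 on the arrays titled C42B miR-410 and C42B miR-CON. These lists therefore go against the line named in the title, and the arrays are called by title only.

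Markers of other cell types were low on both arrays. The 9 measured leukocyte markers averaged 4.61 on the miR-410 array and 4.88 on the miR-CON array, 7 of them being lower, and 4, PTPRC, CD3D, MS4A1 and LYZ, lay below the lower quartile of both arrays (PTPRC at 3.39 and 3.78). NKG7 (5.83 and 6.56) and CSF1R (6.10 and 6.47) were the 2 that passed the median, on the miR-CON array alone. The 10 fibroblast and endothelial markers averaged 4.99 and 4.95, with 5 below the lower quartile of both. COL1A1 (7.03 on the miR-410 array and 7.35 on the miR-CON array) and COL1A2 (7.53 and 7.72) stood above the array medians. The part of such cells in the differences was not tested.

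The 2 arrays differed little over most genes. The array medians were 6.34 on the miR-410 array and 6.36 on the miR-CON array, and over all 21448 probe sets the arrays correlated at r = 0.9896, as a description over probe sets that share 1 hybridisation each. The median difference over all genes was -0.01 (log2), and 48.9% of genes were higher on the miR-410 array. The median size of a difference was 0.164, against 0.245 for the arrays titled C42B. By 2-fold or more, 78 genes (0.441% of those measured) were higher on the miR-410 array and 116 (0.656%) lower. For the arrays titled C42B these numbers were 238 (1.35%) and 399 (2.26%).

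Large differences were rarer among bright genes. From the dimmest to the brightest of 5 equal bins of genes, the share at least 2-fold apart was 1.41%, 2.09%, 1.19%, 0.424% and 0.367%. The genes described were therefore those whose higher value of the pair was at or above the median of that array, called genes at or above the median here. They numbered 9621, of which 51.7% were higher on the miR-410 array. By 2-fold or more, 34 of them (0.353%) were higher and 44 (0.457%) lower. Of these, 22 and 23 were below the median on the other array and so passed through the array on which they were high, which leaves 12 and 21 that were at or above it on both. By 1.5-fold or more the numbers were 179 (1.86%) and 186 (1.93%). By 8-fold or more, 6 were higher and 3 lower.

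**Figure D1:**
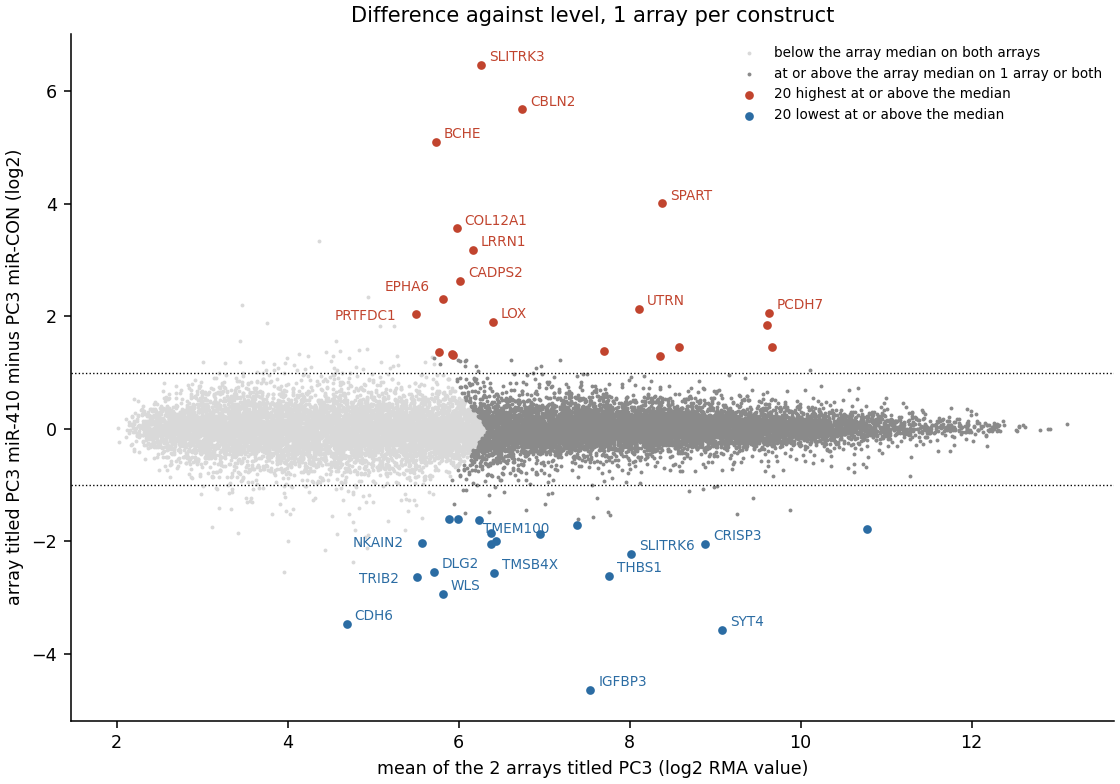
Difference between the array titled PC3 miR-410 and the array titled PC3 miR-CON (vertical axis, log2) against the mean of the 2 arrays (horizontal axis, log2 RMA value), 1 point per gene, with dotted lines at 2-fold. Most genes lie between the lines, and SLITRK3 (6.47), CBLN2 (5.67), BCHE (5.10) and IGFBP3 (-4.63) lie farthest out.

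Genes of synaptic adhesion held several of the most extreme values in both directions, without a shift of the group. Of 49 measured members of the list, 25 were higher on the miR-410 array and 24 lower, with a median of 0.00. At or above the median were 18 members, of which 3 were higher and 2 lower by 2-fold or more. Over all genes at or above the median these shares were 0.353% and 0.457%. Of the 18 members, 6 were below the median on the other array, 3 of them higher and 3 lower. These passed through the array on which they were high, and SLITRK3, CBLN2, LRRN1 and DLG2 were among them. Of the 12 at or above the median on both arrays, 5 were higher and 7 lower, with a median of -0.01.

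SLITRK3, a postsynaptic membrane protein that organises inhibitory synapses, was at 9.50 on the miR-410 array and 3.03 on the miR-CON array, a ratio of RMA values of 88.5. The value on the miR-CON array lay below the lower quartile of that array, as did those of the arrays titled C42B miR-410 and C42B miR-CON (2.82 and 2.72). Of its family, SLITRK6 differed in the other direction, at 6.91 on the miR-410 array and 9.14 on the miR-CON array. The remaining members, SLITRK1, SLITRK2, SLITRK4 and SLITRK5, were below the median on both arrays, with differences between 0.14 and 0.29.

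CBLN2, a secreted cerebellin that bridges neurexins to receptors across the synapse, was at 9.58 on the miR-410 array and 3.90 on the miR-CON array. The other cerebellins, CBLN1, CBLN3 and CBLN4, differed by 0.23, 0.02 and 0.23. LRRN1, a leucine-rich repeat membrane protein of neurons, was at 7.76 and 4.58, with LRRN2 at -0.37 and LRRN3 at 0.22. In each of these families 1 member stood apart and the rest did not.

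DLG2, a postsynaptic scaffold protein, was lower on the miR-410 array, at 4.44 against 6.98 on the miR-CON array. The other scaffolds DLG1, DLG3 and DLG4 differed by 0.05, -0.10 and 0.04. NLGN2, a neuroligin of inhibitory synapses, was at 6.33 on the miR-410 array and 7.06 on the miR-CON array, and NCAM2, a neural cell adhesion molecule, was at 9.91 and 9.39.

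Genes of regulated secretion were likewise split. SYT4, a synaptotagmin of secretory vesicles, was at 7.30 on the miR-410 array and 10.87 on the miR-CON array, a difference of -3.57. CADPS2, which primes dense-core vesicles for release, was at 7.34 and 4.70. RIMS1, an active zone scaffold, was at 6.67 and 5.47, and DDC, which makes dopamine and serotonin from their precursors, was at 7.80 and 6.57. RAB27A, a small GTPase that docks secretory vesicles, was at 7.63 on the miR-410 array and 6.96 on the miR-CON array. Of 39 measured members of this list, 20 were higher and 19 lower, with a median of 0.02.

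The neuroendocrine markers of the same list differed little and were dim. CHGA differed by 0.24, CHGB by -0.29, SYP by -0.47, ENO2 by -0.29, INSM1 by -0.17 and MYCN by 0.34, and each was below the median on both arrays.

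BCHE, which encodes butyrylcholinesterase, an enzyme that hydrolyses choline esters, was at 8.28 on the miR-410 array and 3.19 on the miR-CON array, a difference of 5.10. It was also higher on the array titled C42B miR-410, at 5.22 against 3.64 on the array titled C42B miR-CON. ACHE, the related acetylcholinesterase, was at 6.37 on the miR-410 array and 6.26 on the miR-CON array. Among the other 12 measured enzymes and transporters of transmitters, DDC was the sole one past 2-fold.

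In the insulin-like growth factor system more genes were lower than higher, though not among those at or above the median on both arrays. Of its 23 measured genes, 7 were higher and 16 lower, with a median of -0.27, against -0.01 over all genes. Of the 8 that were at or above the median on both arrays, 4 were higher and 4 lower, with a median of 0.02. IGFBP3, the main carrier of insulin-like growth factors in serum, was at 5.22 on the miR-410 array and 9.86 on the miR-CON array, and at 12.26 and 11.77 on the arrays titled C42B miR-410 and C42B miR-CON. The other binding proteins, IGFBP1, IGFBP2, IGFBP4, IGFBP5, IGFBP6 and IGFBP7, differed by between -0.33 and 0.29.

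The ligand IGF1 differed by -1.23, with 8.23 on the miR-CON array. The adaptor IRS2, which couples the receptors to phosphoinositide 3-kinase, was at 5.92 and 6.74, and the RNA-binding protein IGF2BP2 at 6.04 and 6.89. The receptors IGF1R (7.68 and 7.60), IGF2R (7.04 and 6.94) and INSR (6.53 and 6.54) stood close to equal. STC1, a secreted glycoprotein that can inhibit the protease PAPPA, was higher, at 7.65 on the miR-410 array and 7.08 on the miR-CON array.

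Downstream of these receptors, the 26 measured genes of the phosphoinositide 3-kinase and AKT pathway had a median of -0.02, and 0 were 2-fold apart. PIK3R1, the regulatory subunit, was at 7.81 on the miR-410 array and 7.24 on the miR-CON array. The catalytic subunit PIK3CB was at 9.97 and 9.50, AKT1 at 9.60 and 9.24, and AKT2 at 9.25 and 9.05.

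CDH6, a cadherin of kidney and brain, was at 2.96 on the miR-410 array and 6.43 on the miR-CON array, and was lower on the array titled C42B miR-410 as well (5.73 against 7.04 on the array titled C42B miR-CON). PCDH7, a protocadherin, was higher, at 10.66 on the miR-410 array, with a difference of 2.05 and both values above the array medians. Of 49 cadherins, protocadherins and catenins, 25 were higher and 24 lower, with a median of 0.01. CDH1, which encodes E-cadherin, was at 10.29 on the miR-410 array and 10.27 on the miR-CON array, and its partner CTNNB1, beta-catenin, was at 10.48 and 10.75.

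Genes that build and crosslink collagen fibres included several of the largest positive differences. COL12A1, a collagen that decorates the surface of fibrils, was at 7.76 on the miR-410 array and 4.20 on the miR-CON array. The other 38 measured collagen genes differed by less than 1 (log2). COL4A2 was at 6.38 on the miR-410 array and 6.82 on the miR-CON array, and COL4A5 at 7.41 and 7.15.

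LOX, which crosslinks collagen and elastin outside the cell, was at 7.35 on the miR-410 array and 5.45 on the miR-CON array. PLOD2, which hydroxylates lysines of collagen telopeptides before crosslinking, was at 10.40 and 8.94, and P4HA1, a subunit of collagen prolyl 4-hydroxylase, at 10.39 and 9.71. Their relatives stood closer to 0, with PLOD1 at -0.13, PLOD3 at 0.01, P4HA2 at 0.17, LOXL1 at 0.09, LOXL3 at 0.02, LOXL4 at 0.23 and P4HA3 at -0.44. Over all 23 measured collagen-modifying enzymes the median was 0.01, so these 3 enzymes were the exception in their list.

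MMP16, a membrane-type matrix metalloproteinase, was at 10.53 on the miR-410 array and 8.69 on the miR-CON array. UTRN, which encodes utrophin and links the actin cytoskeleton to the dystroglycan complex, was at 9.17 and 7.05. Of the 20 measured laminins and dystrophin complex genes 13 were higher, with a median of 0.04, among them SGCE (6.36 and 5.72), DTNB (7.97 and 7.49) and LAMB1 (7.53 and 7.23).

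Of 24 measured integrins 11 were higher and 13 lower, with a median of -0.02, and of the 8 that were at or above the median, on both arrays in each case, 6 were higher. ITGA6, a laminin receptor subunit, was at 8.52 on the miR-410 array and 7.79 on the miR-CON array. ITGA5, a fibronectin receptor subunit, was at 7.91 and 7.39, and ITGB1, the beta subunit that both can use, was at 11.10 and 10.85.

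Of 41 measured matricellular and matrix glycoprotein genes, most of them dim, 18 were higher and 23 lower, with a median of -0.05, and 3 were at or above the median on both arrays. THBS1, which encodes thrombospondin 1, an inhibitor of angiogenesis that also activates latent TGF-beta, was at 6.45 on the miR-410 array and 9.06 on the miR-CON array. It was lower on the array titled C42B miR-410 too (7.91 against 9.63 on the array titled C42B miR-CON). FN1, fibronectin, was at 8.47 on the miR-410 array and 9.50 on the miR-CON array, and FBLN2, fibulin 2, at 5.84 and 6.60. HTRA1, a secreted serine protease that cleaves matrix proteins, was at 5.09 and 6.69.

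**Figure D2:**
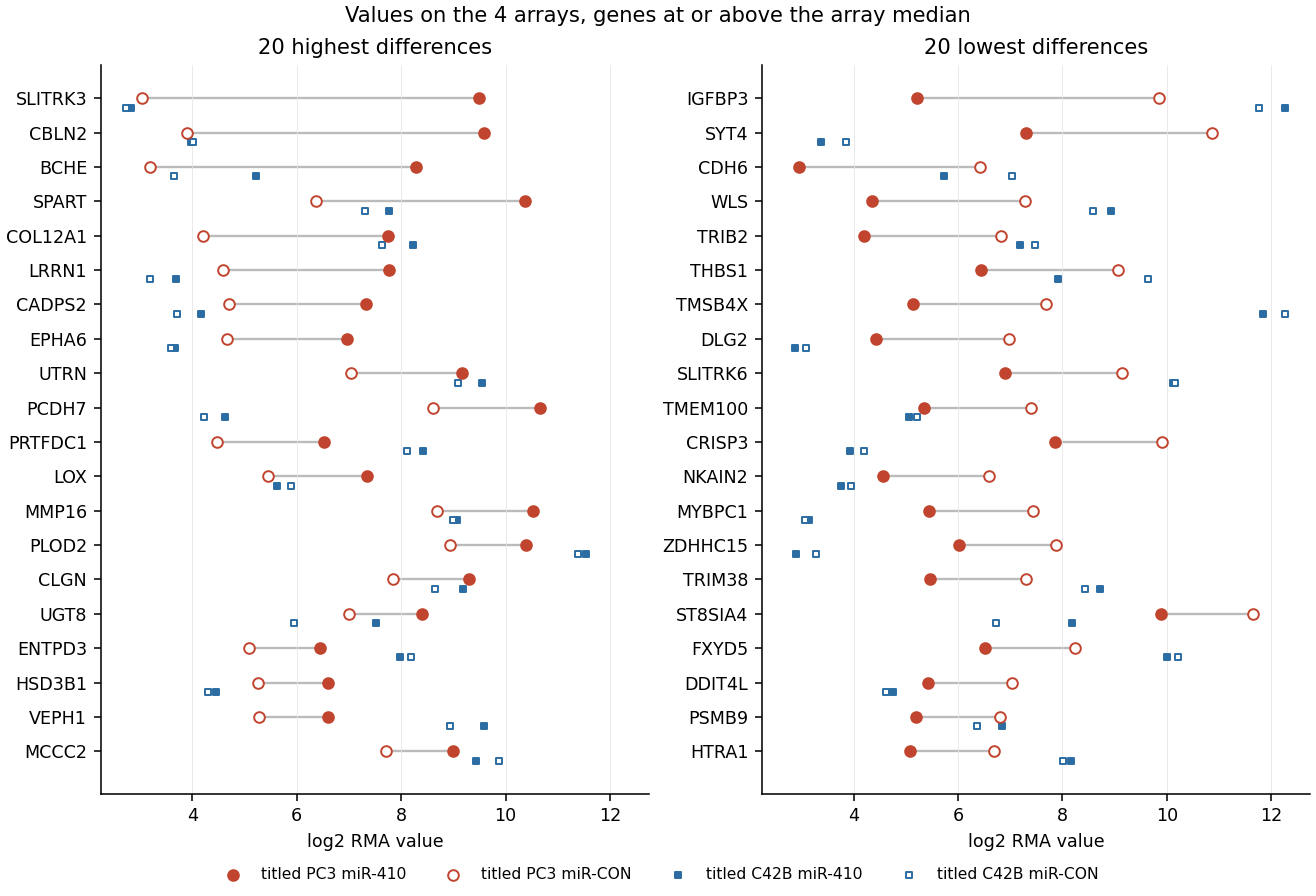
Log2 RMA values on the 4 arrays of the 20 genes with the highest and the 20 with the lowest difference among genes at or above the median, with filled circles for PC3 miR-410, open circles for PC3 miR-CON and squares for the arrays titled C42B. The squares of a gene lie close together for most genes, and BCHE, UGT8, CDH6, THBS1 and ST8SIA4 are the ones whose squares are at least 1 apart.

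Target genes of the hypoxia-inducible factors were higher on the miR-410 array as a group. These factors are held down by oxygen-dependent prolyl hydroxylases. When stable, they bind a short core, commonly ACGTG, in the promoters and enhancers of their targets. Of 27 measured target genes, 21 were higher and 6 lower, with a median of 0.22, against -0.01 over all genes. Of the 24 at or above the median, 19 were higher, 3 of them having passed through the miR-410 array alone. Of the 21 at or above it on both arrays, 16 were higher and 5 lower, with a median of 0.22. Past 1.5-fold were 5 of the 19 and 0 of the lower ones. LOX and PPFIA4, among these 5, were below the median on the miR-CON array. LOX and PLOD2 were in this list as well as in that of collagen enzymes.

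PPFIA4, a liprin scaffold protein, differed by 0.82, with 6.19 on the miR-CON array. BHLHE40, a transcriptional repressor of the clock, was at 7.62 and 7.01, DDIT4, an inhibitor of mTOR complex 1, at 8.60 and 8.07, and NDRG1, a stress-induced cytoplasmic protein, at 9.11 and 8.65. In the other direction stood CA12, a carbonic anhydrase (8.41 and 8.71), ZNF395 (6.70 and 6.94) and VEGFA, the angiogenic growth factor (10.19 and 10.33).

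The regulators of the pathway did not share this direction. EPAS1, which encodes the alpha subunit of hypoxia-inducible factor 2, was at 7.16 on the miR-410 array and 6.33 on the miR-CON array. EGLN3, a prolyl hydroxylase that is itself an inducible target, was at 7.34 and 6.80. HIF1A was at 10.35 and 10.17, ARNT, the shared partner, at 9.30 and 9.44, and VHL, which marks the alpha subunits for destruction, at 7.95 and 8.19. Of 10 regulators, 5 were higher and 5 lower.

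The hypoxia targets with the highest differences are shown with a window of 30 bases around an ACGTG match in their promoter (250 bases before to 50 after the gene's start, RefSeq, GRCh38.p14), written along the gene's strand, with the match or its reverse complement CACGT in capitals.
LOX, chr5:122078285-122078314, minus strand, 42 bases before the start: tgtaactttgcaaACGTGccagaaagttta
PLOD2, chr3:146161314-146161343, minus strand, 146 bases before the start: gcaaacagtccagACGTGgggcccaggagg
PPFIA4, chr1:203026360-203026389, plus strand, 118 bases before the start: cggcgctctcgtcACGTGcccggacccgag
P4HA1, chr10:73096936-73096965, minus strand, 86 bases before the start: gtgtgatcgagctCACGTagcgagggctgc
LOX had 4 such matches in the window, PLOD2 2, PPFIA4 2 and P4HA1 1, counted on both strands, where the palindrome CACGTG counts on each. Of the 23 hypoxia targets with a promoter sequence, 14 (60.9%) held a match, against 21.6% of all 27305 promoters of the same length. The median difference was 0.51 for those with a match and 0.12 for those without, and was not split this way over all genes. A match describes the letters only. Other forms of the core were not searched, and whether a factor was bound was not measured.

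Glycolysis, which hypoxia-inducible factors also drive, differed little. Of 20 measured enzymes and glucose transporters, 14 were higher on the miR-410 array, with a median of 0.09 and 0 at 2-fold. ALDOC, an aldolase, was at 9.94 on the miR-410 array and 9.28 on the miR-CON array, PGK1, phosphoglycerate kinase, at 10.79 and 10.40, GPI, the isomerase of glucose 6-phosphate, at 10.98 and 10.70, and PDK1, which closes pyruvate off from the mitochondrion, at 10.20 and 9.94. HK1, a hexokinase, was at 8.66 and 8.89. Promoters of 8 of 19 of these genes (42.1%) held ACGTG.

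In the pair titled C42B the hypoxia targets stood on the same side by title, with 20 of 27 higher and a median of 0.29. Over all genes at or above the median, 60.6% were higher in that pair, with a median of 0.10. By the genotype field the sign of the pair titled PC3 turns, and the targets would stand on opposite sides. The largest values in the pair titled C42B came from other genes. DDIT4 differed by 1.18 and VEGFA by 0.99 there, whereas LOX differed by -0.28 and PLOD2 by 0.15. Whether the pairs differ was not tested.

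Genes of the androgen receptor programme and of the luminal cell were higher on the miR-410 array for the larger share, 31 of 44, with a median of 0.20, or 23 of 33 with a median of 0.14 at or above the median. The androgen receptor is a hormone-activated transcription factor, and KLK3 and TMPRSS2 are among its best known targets in prostate. TMPRSS2, a serine protease, was at 9.81 on the miR-410 array and 9.37 on the miR-CON array. UGT2B17, which inactivates androgens by glucuronidation, was at 9.87 and 9.26, LRIG1, a brake on receptor tyrosine kinases, at 8.51 and 8.02, and FOLH1, prostate-specific membrane antigen, at 12.16 and 11.84.

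Other members of the same list were lower. ELL2, a transcription elongation factor, was at 10.32 on the miR-410 array and 10.94 on the miR-CON array, its partner EAF2 at 7.29 and 7.80, and PMEPA1, a feedback inhibitor of TGF-beta signalling, at 8.10 and 8.49. UGT2B11 was at 7.39 and 7.82, and UGT2B10 differed by -0.42, so UGT2B genes stood on both sides, and sequence shared among these paralogues can mix their probe signals. HSD3B1, which converts adrenal precursors to androgens, was at 6.59 on the miR-410 array and 5.26 on the miR-CON array. No gene of the androgen receptor list at or above the median was 2-fold apart. The 12 measured LNCaP lineage markers, all of them members of this list, moved with it, 11 being higher with a median of 0.25. Their part in the result was not tested.

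Sterol and fatty acid synthesis, which androgens also drive, differed little. Of 22 sterol genes 15 were higher, with a median of 0.09, and of 15 fatty acid genes 10 were higher, with a median of 0.11. INSIG2, which holds the sterol sensor in the endoplasmic reticulum, was at 7.93 on the miR-410 array and 7.39 on the miR-CON array, and its relative INSIG1 at 9.01 and 8.63. PMVK, phosphomevalonate kinase, was at 6.95 and 7.45, and the regulator SREBF2 at 8.37 and 8.78. ELOVL7, an elongase of long fatty acids, was at 10.18 on the miR-410 array and 9.77 on the miR-CON array.

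Genes of the class I antigen presentation pathway were lower on the miR-410 array for the larger share. Class I molecules carry peptides cut by the proteasome, brought into the endoplasmic reticulum by the TAP transporter and joined there to beta-2 microglobulin. Of 19 measured genes of this pathway 3 were higher and 16 lower, with a median of -0.10. Of the 12 at or above the median on both arrays 10 were lower, with a median of -0.07. The leukocyte markers, all below the median on the miR-410 array, moved the same way, with 7 of 9 lower and a median of -0.37. Their part in these and the following immune gene results was not tested.

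PSMB9, an inducible subunit of the immunoproteasome, was at 5.19 on the miR-410 array and 6.80 on the miR-CON array, and was the one member at least 2-fold apart. HLA-E was at 6.76 and 7.41, TAP1 at 6.03 and 6.56, and B2M at 10.55 and 10.80. PSMB9 and TAP1 were below the median on the miR-410 array. HLA-C (9.15 and 9.16) and HLA-F (8.29 and 8.31) stood close to equal, and HLA genes share sequence that probes may not separate. The class II genes HLA-DPA1 (5.76 on the miR-410 array and 6.94 on the miR-CON array) and HLA-DMA (7.06 and 8.06) were lower too. HLA-DPA1 was below the median on the miR-410 array. The class II regulators RFX5 (8.76 and 8.51) and RFXAP (7.56 and 7.06) were higher. Of 22 measured class II and checkpoint genes 8 were higher and 14 lower, with a median of -0.13. Of the 5 at or above the median on both arrays 3 were higher and 2 lower, with a median of 0.10.

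Interferon effector genes were lower for the larger share. Of 54 measured members 18 were higher and 36 lower, with a median of -0.19. Of the 18 at or above the median on both arrays 12 were lower. IFITM1, a membrane protein that blocks entry of viruses, was at 8.71 on the miR-410 array and 9.45 on the miR-CON array, and IFI6 at 7.74 and 8.33. IFITM2 was at 9.79 and 10.26 and IFITM3 at 10.52 and 10.89, the 3 IFITM genes being similar copies whose probes may overlap. In the other direction, EIF2AK2, the RNA-activated kinase, was at 9.72 and 9.38 and TRIM5 at 7.28 and 6.96.

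Of 22 measured sensors and signalling factors 10 were higher and 12 lower, with a median of -0.05. Of the 11 at or above the median on both arrays 5 were higher and 6 lower, with a median of -0.03. STING1, the adaptor for cytosolic DNA, was at 5.95 on the miR-410 array and 6.55 on the miR-CON array. IRF9, the DNA-binding part of the interferon-stimulated factor, was at 6.02 and 6.54. Both were below the median on the miR-410 array. The receptors IFNAR1 (8.48 and 8.29), IFNAR2 (9.22 and 9.11) and IFNGR2 (9.62 and 9.45) were slightly higher. TRIM38, a ubiquitin ligase that restrains innate signalling, was at 5.46 on the miR-410 array and 7.31 on the miR-CON array.

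The interferon-stimulated factor binds repeats of GAAA. The windows of the lower genes that follow, chosen to show this letter pattern, have in capitals GAAA, any 2 bases and GAAA again, or its reverse complement, written along the gene's strand from RefSeq promoters of GRCh38.p14.
IFITM1, chr11:314024-314053, plus strand, 6 bases before the start: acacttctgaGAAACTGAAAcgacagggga
IFI6, chr1:27672288-27672317, minus strand, 115 bases before the start: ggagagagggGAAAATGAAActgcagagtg
TAP1, chr6:32853813-32853842, minus strand, 128 bases before the start: ccgctttcgaTTTCGCTTTCccctaaatgg
B2M, chr15:44711369-44711398, plus strand, 138 bases before the start: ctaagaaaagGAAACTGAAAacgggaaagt
This pattern of 10 letters, searched on both strands with overlaps allowed, occurred in 30 of 45 effector gene promoters (66.7%) and in 7 of 16 class I pathway promoters (43.8%), against 3.65% of all promoters. The effector genes with a match had a median difference of -0.20 and those without one -0.03. For the class I pathway genes these medians were -0.14 and -0.10, and the median over all genes was not split this way. EIF2AK2 and TRIM5, which were higher on the miR-410 array, held a match too.

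NF-kappaB targets were also mostly lower, 16 of 24, with a median of -0.21. TNFAIP3, an inhibitor of the pathway that is also its target, was at 7.38 on the miR-410 array and 8.13 on the miR-CON array, NFKBIA, the classical inhibitor, at 10.40 and 10.84, and the chemokine CXCL2 at 6.26 and 6.78. CCL20, a chemokine for CCR6-bearing cells, was at 10.91 and 10.22 and NFKB2 at 8.79 and 8.43, in the other direction. Among cytokine receptors, OSMR was at 7.31 on the miR-410 array and 6.57 on the miR-CON array. Over all 45 chemokines, cytokines and receptors the median was 0.03.

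**Figure D3:**
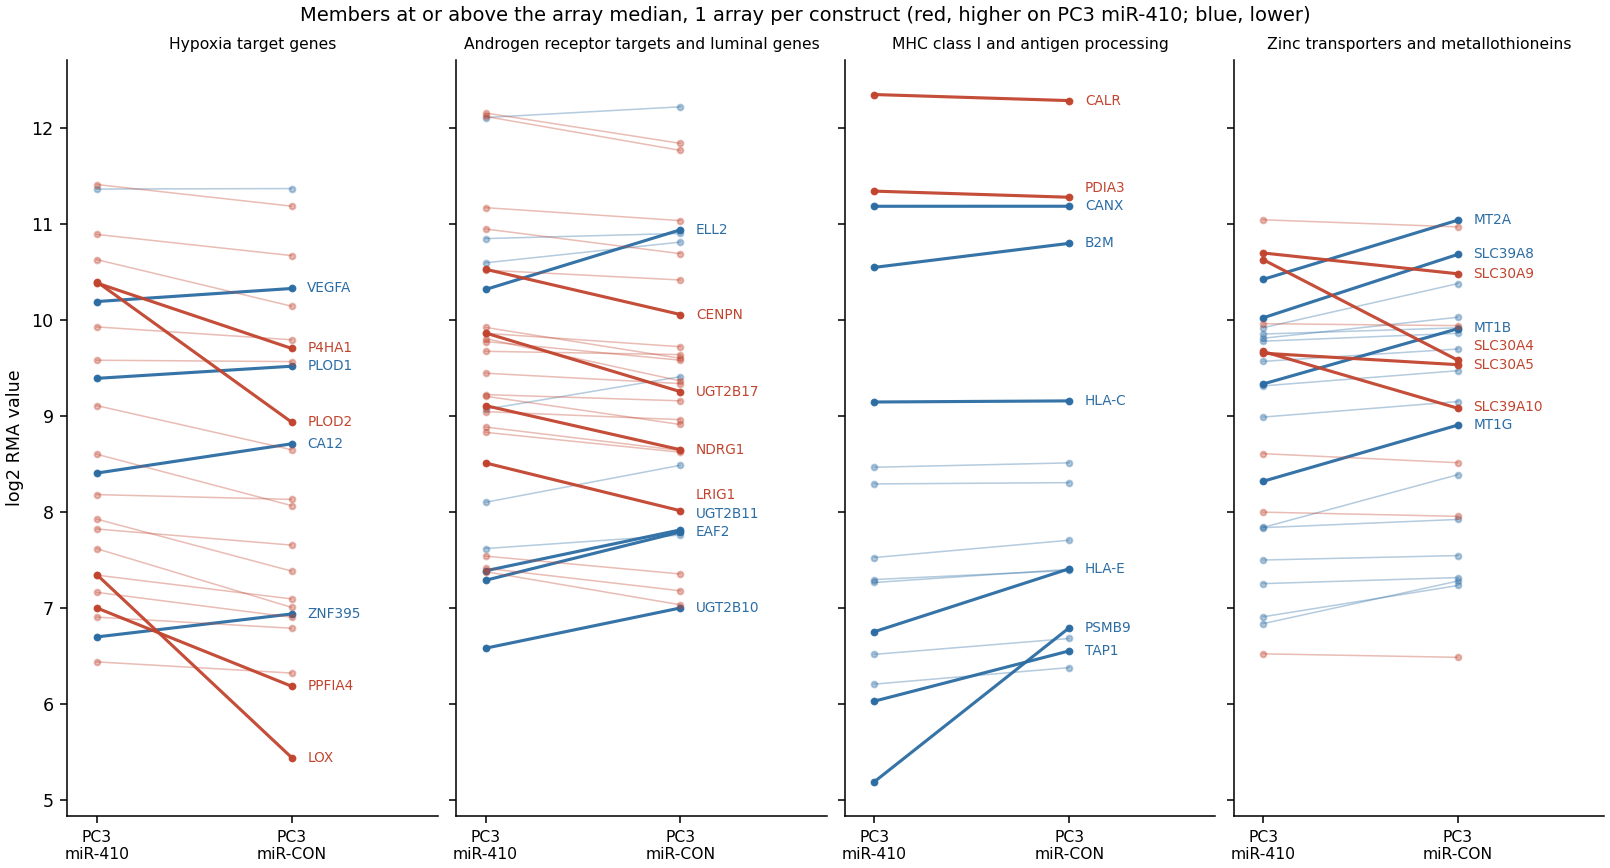
Log2 RMA values of members at or above the median of 4 lists (hypoxia targets, androgen receptor and luminal genes, class I pathway, zinc genes), PC3 miR-410 on the left and PC3 miR-CON on the right of each panel, 1 line per gene, with the 4 highest and 4 lowest differences named. Hypoxia targets were higher for 19 of 24 lines and class I pathway genes lower for 13 of 15. In each of these lists 3 genes passed through 1 array alone, the array on which they were high. Among genes at or above the median on both arrays, the numbers were 16 of 21 and 10 of 12. LOX, PLOD2, PSMB9 and SLC30A4 are the lines with a difference of at least 1.

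Of 31 measured zinc transporters and metallothioneins, 10 were higher and 21 lower, with a median of -0.09. Single zinc transporters stood on both sides. SLC30A4, which moves zinc from the cytosol into vesicles, was at 10.63 on the miR-410 array and 9.58 on the miR-CON array, and SLC39A10, a zinc importer, at 9.67 and 9.08. SLC39A8, an importer of zinc and manganese, was at 10.02 and 10.68. Metallothioneins, small cysteine-rich proteins that bind zinc and are induced by it, were lower, with MT2A at 10.42 on the miR-410 array and 11.04 on the miR-CON array.

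The other metallothioneins at or above the median were lower as well, except MT3 at 0.04. MT1G was at 8.32 on the miR-410 array and 8.91 on the miR-CON array, MT1F at 7.84 and 8.39 and MT1X at 9.92 and 10.38. MT1B, MT1H and MT1M differed by -0.58, -0.44 and -0.33. These genes lie next to each other on chromosome 16 and are similar copies, so their values may not be independent. In the pair titled C42B the differences of MT2A, MT1G and MT1X were 0.12, 0.10 and 0.12, whereas SLC30A4 differed by 1.15 there.

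Metal response elements hold the core TGCGCNC, shown in capitals for the metallothionein with the highest value of the pair, along the gene's strand.
MT2A, chr16:56608419-56608448, plus strand, 153 bases before the start: tgcagagccgggTGCGCCCggcccagtgcg
The core occurred in 3 of the 5 metallothionein promoters at hand and in 4 of 19 zinc transporter promoters (21.1%), against 20% of all promoters.

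Of 30 measured feedback genes of the MAP kinase pathway 14 were higher and 16 lower, with a median of -0.04. At or above the median on both arrays were 15, of which 12 were lower. DUSP10, a phosphatase of stress kinases, was at 5.97 on the miR-410 array and 7.10 on the miR-CON array, PHLDA1 at 8.14 and 9.26, the transcription factor JUN at 7.71 and 8.27, and DUSP4, a phosphatase of ERK, at 8.92 and 9.43. SPRY1, an inhibitor of receptor tyrosine kinase signalling, was at 8.47 and 7.93, in the other direction.

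Receptor tyrosine kinases and their ligands had a median of -0.01 over 58 genes. EPHA6, an ephrin receptor, was at 6.96 on the miR-410 array and 4.66 on the miR-CON array, and EPHA3, close by on chromosome 3, was at 8.32 and 9.39. KITLG, stem cell factor, was at 6.76 and 5.65, MERTK, a receptor for apoptotic cell debris, at 7.43 and 6.80, and EGFR at 8.97 and 8.51. MET, the receptor of hepatocyte growth factor, was at 7.68 on the miR-410 array and 8.17 on the miR-CON array.

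In the Wnt pathway, WLS, the carrier that brings Wnt proteins to the cell surface, was at 4.35 on the miR-410 array and 7.28 on the miR-CON array. FZD1, a Wnt receptor, was at 8.22 and 8.97, NKD2, an inhibitor of the pathway, at 5.46 and 6.37, and RNF43, which removes Wnt receptors, at 7.34 and 7.74. FZD5 (7.46 and 6.98), LGR4 (7.22 and 6.84) and NKD1 (6.57 and 6.08) stood in the other direction. Over all 52 measured genes the median was -0.04.

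Targets of YAP and of serum response factor had a median of -0.01 over 33 genes, with 2 genes 2-fold apart, both lower. TMSB4X, which encodes thymosin beta 4, a binder of actin monomers, was at 5.13 on the miR-410 array and 7.69 on the miR-CON array, and THBS1 was described above. TEAD1, the DNA-binding partner of YAP, was at 7.24 and 6.83 and TEAD4 at 6.77 and 7.12. In TGF-beta and activin signalling, BAMBI, a decoy receptor, was at 8.52 on the miR-410 array and 7.92 on the miR-CON array. ID1 and ID3, targets of bone morphogenetic proteins, were at 8.43 and 8.91, and at 8.43 and 8.73.

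The epithelial genes differed little in this pair. Of 47 measured genes 25 were higher and 22 lower, with a median of 0.01, and 0 of the 35 at or above the median were 1.5-fold apart. The tight junction protein OCLN was at 9.66 on the miR-410 array and 9.08 on the miR-CON array, and the small GTPase RAB25 at 8.98 and 8.57. The claudins CLDN12 (9.63 and 10.12) and CLDN3 (7.12 and 7.43) were lower. The same 47 genes had a median of -0.65 in the pair titled C42B, with 37 lower, among them CDH1 (-3.34), ESRP1 (-4.50) and GRHL2 (-3.70). These signs follow the titles and are the reverse of the study's, and the difference between the pairs was not tested.

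Of the mesenchymal genes, 6 of 26 were at or above the median, and 4 of those were lower. SNAI2, a repressor of epithelial genes, was at 6.79 on the miR-410 array and 8.35 on the miR-CON array, and at 11.42 and 10.19 on the arrays titled C42B miR-410 and C42B miR-CON. FN1 was described above. MSN, which links actin to the membrane, was at 8.45 on the miR-410 array and 8.97 on the miR-CON array, VIM, vimentin, at 8.76 and 8.92, SNAI1 at 7.60 and 7.57, and TCF4 at 8.12 and 7.75. CAV1, the main coat protein of caveolae, was at 5.32 and 6.81, whereas the other caveolar genes at or above the median, EHD4, PACSIN2, PACSIN3 and ROR1, differed by between -0.42 and 0.31.

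Other genes of the 20 lowest and 20 highest fell in no list with a common direction. SPART, which encodes spartin, a protein of endosomes and lipid droplets, was at 10.38 on the miR-410 array and 6.38 on the miR-CON array. PRTFDC1, a relative of the purine salvage enzyme HPRT, was at 6.52 and 4.48, and CLGN, a chaperone of the endoplasmic reticulum best known from testis, at 9.31 and 7.85. UGT8, which makes galactosylceramide, was at 8.40 on the miR-410 array and 7.01 on the miR-CON array and also higher on the array titled C42B miR-410 (7.53 against 5.95 on the array titled C42B miR-CON).

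ENTPD3, which breaks down extracellular nucleotides, was at 6.45 on the miR-410 array and 5.08 on the miR-CON array, VEPH1 at 6.59 and 5.28, and MCCC2, an enzyme of leucine breakdown, differed by 1.29, with 7.71 on the miR-CON array. Lower were TRIB2, a pseudokinase (4.20 on the miR-410 array and 6.83 on the miR-CON array), TMEM100 (5.35 and 7.40) and CRISP3, a secreted cysteine-rich protein of the prostate (7.86 and 9.91). NKAIN2 was at 4.56 and 6.59.

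MYBPC1, a myosin-binding protein of slow muscle, was at 5.44 on the miR-410 array and 7.43 on the miR-CON array, ZDHHC15, a palmitoyltransferase, at 6.02 and 7.89, and FXYD5, a regulator of the sodium pump, at 6.53 and 8.24. DDIT4L, a relative of DDIT4, was at 5.43 and 7.04, while DDIT4 itself was higher. ST8SIA4, which adds polysialic acid to neural cell adhesion molecules, was at 9.89 on the miR-410 array and 11.66 on the miR-CON array.

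Replication-dependent histone genes were lower on the miR-410 array for 41 of 52, with a median of -0.13 and 0 at 2-fold. H2AC15 was at 7.04 on the miR-410 array and 7.62 on the miR-CON array, H2AC6 at 9.04 and 9.47, and H4C3 at 11.41 and 11.80, whereas H3C6 was at 6.70 and 6.35. The copies of a histone share most of their sequence, so they are not independent readings. In the pair titled C42B 47 of the 52 were higher, with a median of 0.32, and the difference between the pairs was not tested.

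Genes of DNA replication and mitosis stood closer to 0. Over 46 genes of S phase the median was 0.02, and over 49 genes of G2 and mitosis it was -0.06, with 0 at 2-fold in either. MCM2, a helicase subunit, was at 8.70 on the miR-410 array and 9.01 on the miR-CON array, UHRF1 at 7.66 and 8.02, and POLA2 at 7.91 and 7.50. The proliferation antigen MKI67 was at 9.98 and 10.08 in the same order. CDKN1A, the p53-induced inhibitor of cyclin-dependent kinases, was at 8.70 on the miR-410 array, a difference of 0.71, with its co-targets MDM2 at 9.65 and 9.14 and TP53INP1 at 8.90 and 8.37, whereas TP53I3 (7.51 and 8.09) and BAX (7.75 and 8.16) were lower. Over all 22 measured p53 targets 12 were higher, with a median of 0.11.

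Potassium, calcium and chloride channel genes were lower for 24 of 33, with a median of -0.11. KCNH2, a potassium channel known from the heart, was at 6.03 on the miR-410 array and 6.94 on the miR-CON array, and CACNB2, a calcium channel subunit, at 6.12 and 6.49. ORAI3, a store-operated calcium channel, was at 7.25 and 6.90 in the other direction.

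Housekeeping and stress lists were centred near 0. The median was 0.02 over 44 cytosolic ribosomal protein genes, 0.05 over 48 genes of the respiratory chain, -0.06 over 25 genes of microRNA processing and silencing, 0.06 over 29 chaperones of the endoplasmic reticulum and -0.05 over 24 NRF2 targets. None of the members of the first 4 lists was 2-fold apart. AGO2, the slicing Argonaute, was at 9.26 on the miR-410 array and 9.14 on the miR-CON array, and DICER1 at 7.84 and 7.89. Among ATF4 targets, SLC7A11, the cystine transporter, was at 9.25 and 8.71, ASNS, asparagine synthetase, at 10.06 and 9.58, and the pseudokinase TRIB3 at 6.55 and 7.02, over a list median of -0.01.

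**Figure D4:**
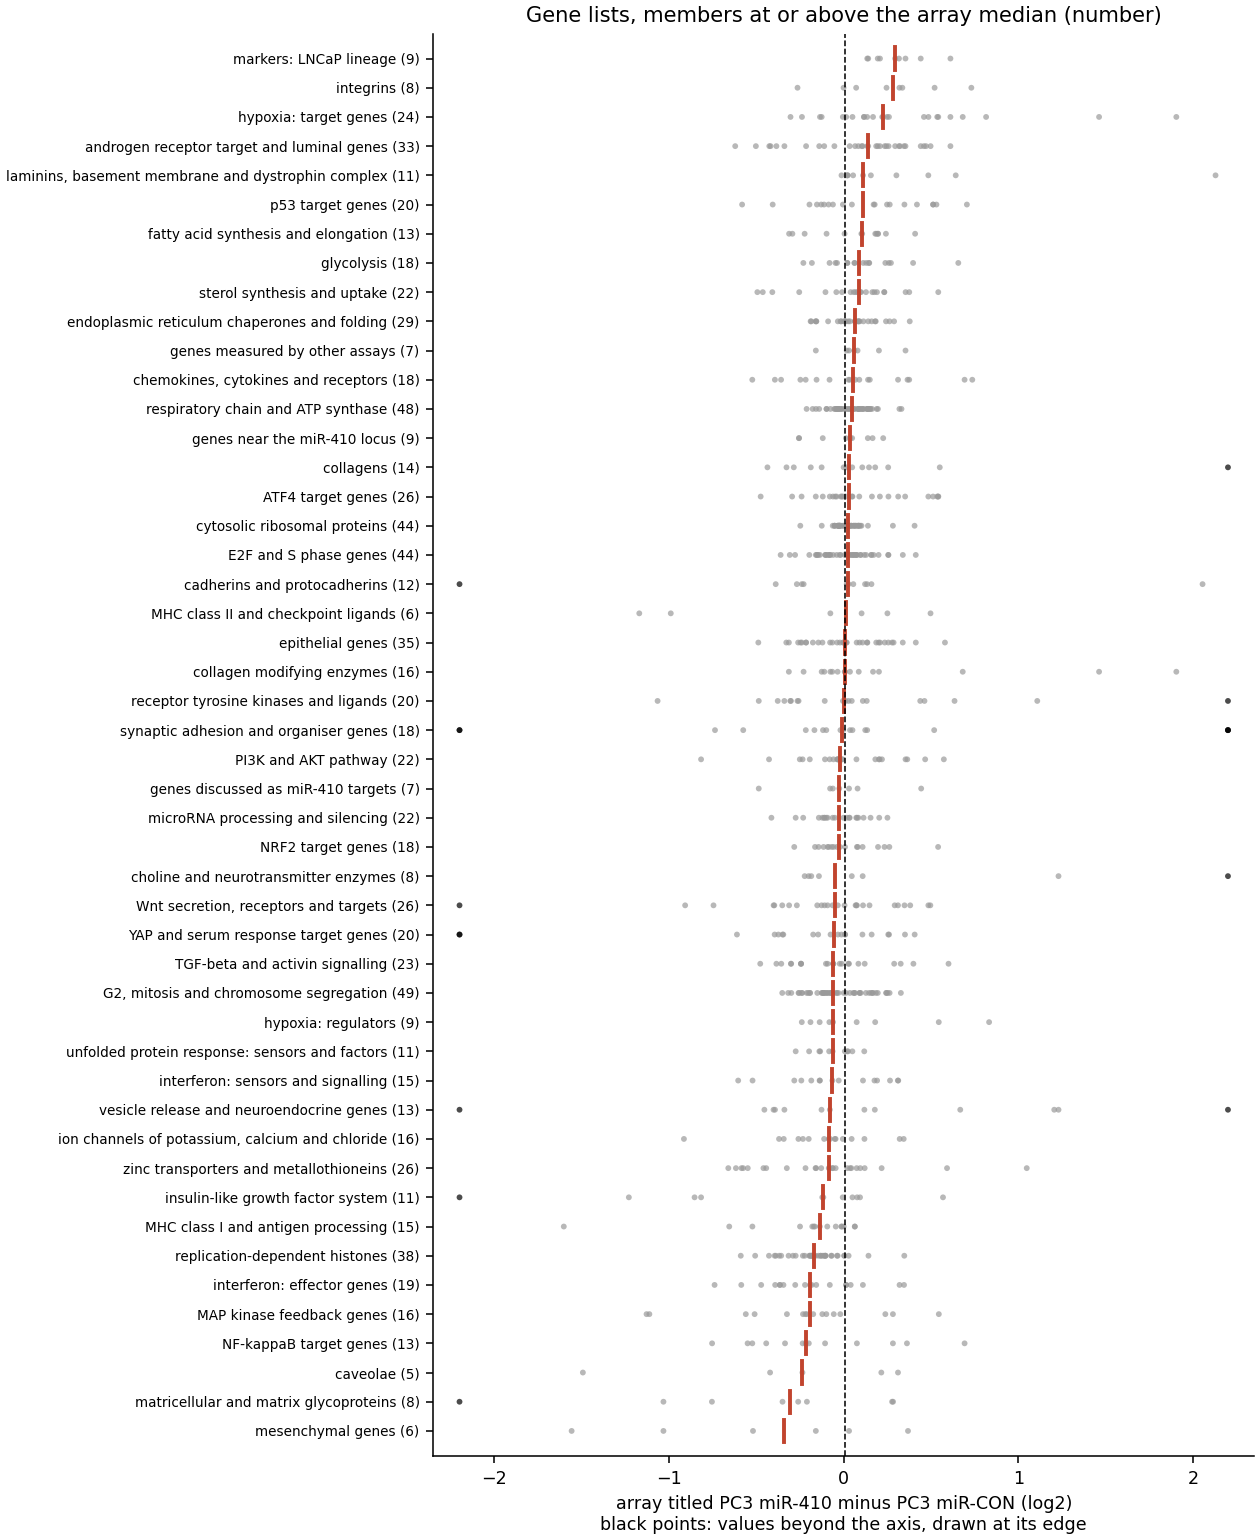
Differences between the array titled PC3 miR-410 and the array titled PC3 miR-CON (log2) for the members at or above the median of each gene list that holds at least 5 of them, 1 grey point per gene, with the list median as a red bar and the median over all such genes (0.01) as a dashed line. LNCaP lineage markers (0.29), integrins (0.28) and hypoxia targets (0.22) have the highest medians of the lists drawn, and mesenchymal genes (-0.34), matricellular genes (-0.31) and caveolar genes (-0.24) the lowest, each of the last 3 over 8 genes or fewer, of which 5 matricellular and 1 caveolar gene passed through 1 array alone.

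Genes discussed by the study as targets of miR-410, several of them cited from other cancers, differed little. Of 9 such genes 8 were measured, 4 higher and 4 lower, with a median of 0.00 and 0 at 1.5-fold among the 7 at or above the median. MET stood lowest, as given above, and CETN3, a centrin of the centrosome, was at 7.28 on the miR-410 array and 6.84 on the miR-CON array. PRKD1, protein kinase D1, was at 10.23 and 10.15, SNAI1 at 7.60 and 7.57, BRD7 at 8.78 and 8.81, KLF10 at 8.29 and 8.35 and BAK1 at 7.46 and 7.54. AGTR1, the angiotensin receptor, was below the median on both arrays, with a difference of 0.40. In the pair titled C42B, PRKD1 differed by 2.94 by title, the reverse of the study's direction for those arrays. The study also reported lower PRKD1 RNA by real-time PCR in PC3 and C42B cells with miR-410, and lower protein by Western blot. For SNAIL, the product of SNAI1, it reported lower protein and reporter activity in LNCaP cells.

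Of 14 measured genes that the study followed by other assays, 8 were higher and 6 lower. CDH2, which encodes N-cadherin, was at 2.82 on the miR-410 array and 3.88 on the miR-CON array, TGFB1 at 5.15 and 5.54, MMP10 at 3.85 and 3.86, and the neuronal transcription factor POU3F2 at 3.24 and 3.22, all below the median on both arrays. GAPDH, a common reference gene, was at 12.64 and 12.58. Around the miR-410 locus, DLK1 (4.81 and 4.52), RTL1 (4.29 and 4.72) and DIO3 (3.83 and 4.31) were dim, and 0 of 16 neighbouring genes were 2-fold apart.

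The same genes were then set beside the pair titled C42B, which shares no array with the pair titled PC3. Of the 34 genes that were higher by 2-fold or more on the miR-410 array, 26 had a difference of the same sign in the pair titled C42B, 3 of them past 2-fold, and 1 was past 2-fold in the other direction. Of the 44 lower genes, 27 had the same sign, 4 of them past 2-fold, and 2 were past it in the other direction. Over all 9621 genes at or above the median, 60.6% were higher and 39.4% lower in the pair titled C42B, with 1.11% and 1.64% past 2-fold. The genes past 2-fold with the same sign were BCHE, UGT8 and SLC30A4 on the higher side and CDH6, THBS1, CAMK2N1 and TMEM45B on the lower side. This sharing of signs holds by title. By the genotype field the sign of the pair titled PC3 alone turns, and the same genes would differ in opposite directions. CAMK2N1, an inhibitor of a calmodulin-dependent kinase, was at 8.50 on the miR-410 array and 10.01 on the miR-CON array and differed by -1.94 in the pair titled C42B, and TMEM45B was at 6.34 and 7.67 and differed by -2.20 there.

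The cells titled C42B had levels above, between or below those of the pair. Of the 34 genes that were higher, 9 had a mean on the arrays titled C42B above the brighter array titled PC3 and 17 had one below the dimmer array, and of the 44 that were lower these numbers were 17 and 23. IGFBP3 and TMSB4X were brightest on the arrays titled C42B, and SLITRK3, LRRN1, SYT4 and DLG2 were dimmest there.

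**Figure D5:**
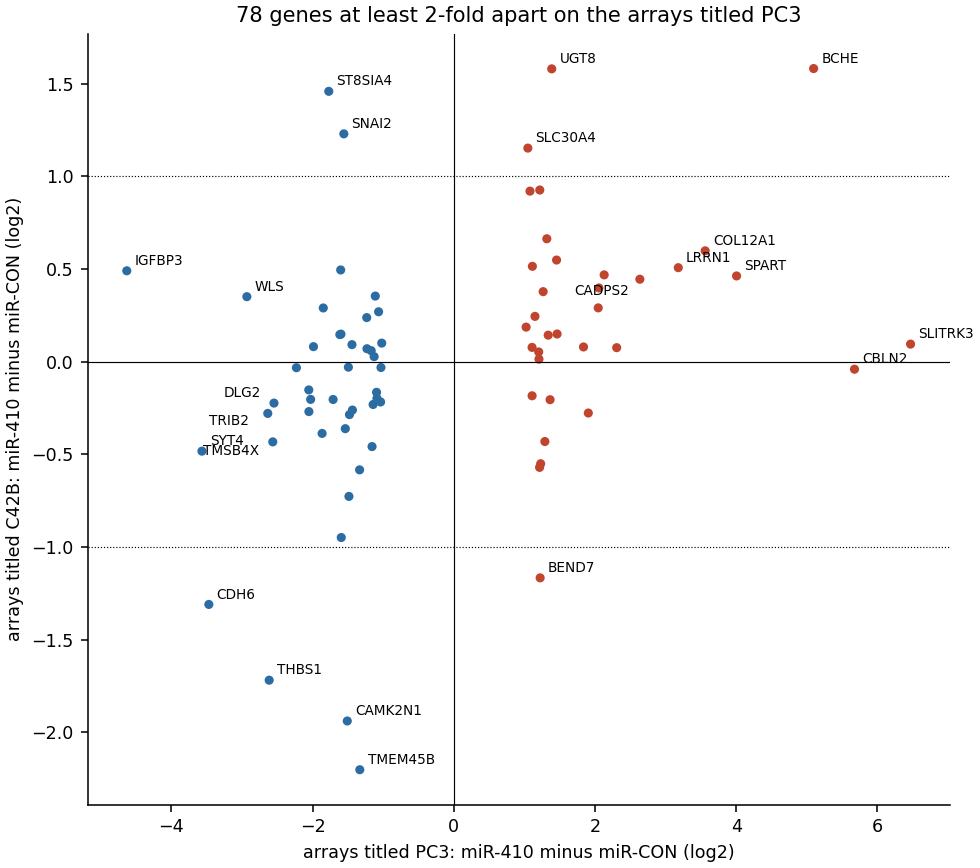
Difference between constructs on the arrays titled C42B (vertical axis, log2) against that on the arrays titled PC3 (horizontal axis, log2) for the 78 genes at or above the median that were at least 2-fold apart on the arrays titled PC3, with dotted lines at 2-fold. Most points lie between the dotted lines, 7 lie beyond them with the same sign and BEND7, SNAI2 and ST8SIA4 beyond them with the opposite sign.

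Some of the genes lay next to each other in the genome. On chromosome 3, SLITRK3 and BCHE are neighbours among the measured genes. On their outer sides, SI (6.03 on the miR-410 array and 2.70 on the miR-CON array) and ZBBX (4.70 and 2.82) were also higher by over 2-fold, though below the median on both arrays. SERPINI1, which encodes neuroserpin, stood in the same stretch at 7.13 and 6.16, while PDCD10 and GOLIM4 there differed by 0.27 and 0.05. On chromosome 12, SPIC, a transcription factor of macrophages, lies beside MYBPC1 and differed by -1.54, with 8.54 on the miR-CON array. On chromosome 6, PSMB9 lies among HLA-DMA, HLA-DPA1, TAP1 and PSMB8-AS1, and all 10 genes around it were lower.

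A neighbour within 5 genes on either side and past 2-fold in the same direction was found for 5 of the 34 higher genes (14.7%) and 8 of the 44 lower genes (18.2%). Over all 17687 genes, such a neighbour on the higher side was found for 4.04% and one on the lower side for 6.01%. SI, ZBBX, SERPINI1 and SPIC were named after their values were seen, because of their position. No chromosome was shifted as a whole, with medians between -0.05 and 0.05 (log2) over chromosomes 1 to 22 and X. By 2-fold or more, chromosome 3 had 14 genes that were higher and 7 that were lower, and chromosome X had 1 and 11.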

How the data were processed

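RNA was extracted with a column kit for small and large RNA, labelled with biotin and hybridised to Clariom S arrays, 1 for each title. The log2 values deposited by the authors came from Partek Genomics Suite and RMA, with 1 value for a probe set on each array. Background settings are not given in the sources used here. The scanner output was left out, so batches and signal over background were not looked at. All 4 columns of the deposited table belong to a sample of this series.

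Probe sets were named through GEO's platform annotation, in which 17709 of 21448 had 1 symbol and 3739 were unnamed here. Probe sets of 1 gene were averaged (20 genes). All 17687 symbols matched RefSeq's gene table, and 14250 had a promoter sequence.

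Named genes were SLITRK3, IGFBP3, BCHE and CDH6, the 20 highest and 20 lowest differences once genes below the median of both arrays were set aside, the 4 highest and 4 lowest such members of each gene list, relatives of these genes, and the genes the study discussed or assayed. Other genes were named after their values were seen. The comparison, members and lists were chosen with earlier results of these data known. Calculations used Python 3.11.15, NumPy 2.4.6, pandas 2.3.3, statsmodels 0.14.6 and Matplotlib 3.10.9, and were tested on simulated data. Alternatives were other folds, filters on level, a loess trend (span 0.4), median centring, other choices of probe set and the construct by genotype field.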

Additional observations from a re-analysis of the deposited data

Results flagged for a closer look

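Genes at or above the median of the arrays titled PC3 that differed by at least 2-fold in opposite directions in the pairs numbered 3. SNAI2 differed by -1.56 (log2, miR-410 minus miR-CON by title) on the arrays titled PC3 and by 1.23 on the arrays titled C42B. ST8SIA4 differed by -1.77 and 1.46, and BEND7, a BEN domain protein, by 1.22 and -1.17, in the same order of pairs. The differences between the pairs were not tested, since each has 1 array a side. By the genotype fields the sign of the pair titled PC3 turns and each of these genes would differ in the same direction in both pairs. By the direction of the study's own folds the signs of both pairs turn, and the genes stay opposite.

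Among the 3739 probe sets unnamed here, 22 were at least 2-fold higher on the array titled PC3 miR-410 and 18 at least 2-fold lower, with extremes of 2.13 and -3.62. At or above the array median these numbers were 5 and 5. Their genes were not analysed here.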

How the results depend on the processing

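On the array titled PC3 miR-410, 78 genes were higher and 116 lower by 2-fold or more. The counts became 517 and 641 at 1.5-fold, 19 and 36 at 3-fold, 34 and 44 where the brighter value had to reach the array median, 15 and 32 where the mean had to, and 12 and 21 where both values had to, a filter chosen after seeing the data. Subtracting a loess trend or the median difference, choosing the brightest probe set, or counting all probe sets left both counts within 1.5 times, and by the genotype field the counts change places. The filter on the brighter value moved 11 of 51 list medians by over 0.1 (log2). These became 0.013 for MHC class II and checkpoint ligands, -0.12 for the insulin-like growth factor system, -0.19 for MAP kinase feedback genes, -0.080 for vesicle release genes, -0.048 for choline and neurotransmitter enzymes, -0.31 for matricellular genes, 0.28 for integrins, -0.24 for caveolae, -0.34 for mesenchymal genes, -0.55 for leukocyte markers and -0.26 for fibroblast and endothelial markers. Requiring both values moved 8 of 50, to 0.10 for MHC class II and checkpoint ligands, 0.022 for the insulin-like growth factor system, -0.17 for MAP kinase feedback genes, -0.13 for vesicle release genes, -1.03 for matricellular genes, 0.28 for integrins, -0.34 for mesenchymal genes and -0.26 for fibroblast and endothelial markers. The construction of these filters (fewer, brighter genes) is the change. The loess trend moved no named extreme gene by more than 0.0455. No paired analysis was possible because each group holds 1 array. Without replicates, differences from the selected populations, the culture or the hybridisation cannot be told apart from those of the construct, and signal over background was not examined.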

Other observations

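Several genes below the array median on both arrays titled PC3 also differed by over 2-fold and were named after their values were seen. HLA-DRA, a class II antigen-presenting molecule, was at 3.58 on the array titled PC3 miR-410 and 5.94 on the array titled PC3 miR-CON. CD274, the checkpoint ligand PD-L1, was at 3.95 and 5.47, and the antiviral tether BST2 at 2.49 and 4.34. SAMD9, an interferon-induced antiviral protein, was at 4.47 and 6.28. The aldo-keto reductases AKR1C3 (a difference of -1.99) and AKR1C1 (3.06 and 4.58), which act on steroids, were lower too, and their paralogues may share probe signal. INHBA, the subunit of activin A, was at 4.13 and 5.54 and the chemokine CXCL5 at 3.74 and 5.30. ACP3, prostatic acid phosphatase, was higher, at 6.29 on the array titled PC3 miR-410 and 5.14 on the array titled PC3 miR-CON, as was DUSP5, a nuclear phosphatase of ERK, at 5.68 and 4.50. Whether such values lie above background was not examined.

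Among brighter genes, ADAMTS1, a matrix protease, was at 9.16 on the array titled PC3 miR-410 and 10.59 on the array titled PC3 miR-CON. AHR, the receptor for dioxin-like compounds, was at 6.47 and 7.63. The histone variant MACROH2A2 was at 8.51 and 9.53, and the kinase CDK14 at 8.83 and 10.06. MAP2, a protein of neuronal microtubules, was at 6.34 on the array titled PC3 miR-410 and 5.07 on the array titled PC3 miR-CON. These genes were outside the rule for named genes and were chosen after their values were seen.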
